A study of Rattus norvegicus with 8 samples.

Results

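Hemoglobin and erythroid genes were followed through thyroid RNA-Seq libraries of the rat. The members were chosen by gene symbol, and 6 symbols were named: Hba-a2, Hba-a3, Hbb-b1, Slc4a1, Ahsp, and Alas2. Of these, 5 matched a symbol in the table of 30560 gene identifiers, and Alas2 was not analysed here. The 5 genes held 20 of the 54991 transcript rows, of which 6 belonged to Hba-a2, 1 to Hba-a3, 10 to Hbb-b1, 2 to Slc4a1, and 1 to Ahsp. Hba-a3 was selected on its difference between the sham-irradiated and irradiated rats at 4 months of age, so all values of that comparison are a description without a test.

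Hemoglobin is a tetramer of alpha and beta globin chains that carries oxygen in red blood cells. Mammalian red blood cells lose their nucleus, but young ones released from the marrow still hold globin mRNA for a time, and RNA from whole tissue therefore includes some from the blood left in its vessels. Ahsp is the chaperone that binds free alpha globin, Slc4a1 is the band 3 anion exchanger of the red cell membrane, and Alas2 starts heme synthesis in erythroid cells.

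The rats were male Wistar rats without a genetic modification in the labels. The 1w0Gy and 1w4Gy groups were sham-irradiated or exposed to 4 Gy of X-rays on the neck at 1 week of age, and the 4m0Gy and 4m4Gy groups at 4 months of age. Thyroids were taken about 8 weeks after exposure, and the study's methods state that the animals were killed by removal of the whole blood. Each group had 2 libraries, from the rats with the better RNA integrity, with 14.8 M to 18.1 M counts on genes each. The p-values measure only the spread between these deposited samples. In such bulk tissue, fewer cells of a type and less RNA per cell cannot be told apart. The thyroid follicle marker Tg was high in all 8 libraries, the lowest at 182447 CPM (counts scaled to the library total after TMM normalization). The libraries of a group differed by more than sampling noise, since chi-square divided by its degrees of freedom was 8.44 to 17.3.

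The sequence just before the start of each globin gene is shown because the alpha copies are so alike. The RefSeq promoter table of build GRCr8 held entries matched by symbol for 3 of the 5 members. The last 150 bases before the annotated start are given 5′ to 3′ on the minus strand of chr10:15829139-15829288 for Hba-a2, chr10:15816944-15817093 for Hba-a3, and chr1:167643521-167643670 for Hbb-b1, where capitals mark the motif CACCC, the box CCAAT, or the TATA-like stretch ATAAA on either strand.
Hba-a2: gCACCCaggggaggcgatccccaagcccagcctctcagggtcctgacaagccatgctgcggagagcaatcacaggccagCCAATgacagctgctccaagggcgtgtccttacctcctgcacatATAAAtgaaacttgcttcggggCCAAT
Hba-a3: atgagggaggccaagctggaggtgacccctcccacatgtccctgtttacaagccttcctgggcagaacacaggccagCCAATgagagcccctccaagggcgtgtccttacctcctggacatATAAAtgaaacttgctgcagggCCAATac
Hbb-b1: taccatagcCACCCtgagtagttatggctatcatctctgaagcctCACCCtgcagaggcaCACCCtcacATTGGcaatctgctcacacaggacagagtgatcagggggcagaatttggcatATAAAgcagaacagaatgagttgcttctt
Both alpha globin windows held CCAAT 2 times, upstream of ATAAA and again next to the start. Over the 75 bases nearest the start, 69 were identical between Hba-a2 and Hba-a3 once the starts were shifted by 2 bases, without gaps. Over 150 bases, 93 were identical. The CACCC motif was found 3 times in Hbb-b1, once in Hba-a2, and not in the Hba-a3 window, and GATAA was in none of the 3 windows. Of 33469 promoter windows of this length, 35.2% held CACCC, 23.5% CCAAT, 25.7% ATAAA, and 14.2% GATAA. The match of letters is a description and shows no binding.

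Globin transcripts took a small share of each library. Summed over Hba-a2, Hba-a3, and Hbb-b1, they made up 0.0399% of the counts in the first 4m0Gy library and 0.081% in the first 1w0Gy library. The summed level was 793 and 797 CPM in 1w0Gy, 802 and 589 CPM in 1w4Gy, 401 and 493 CPM in 4m0Gy, and 491 and 543 CPM in 4m4Gy. All 4 libraries of rats exposed at 1 week of age were above all 4 of rats exposed at 4 months, and the highest was 2.00 times the lowest. The deposited TPM, which correct for transcript length, ran from 552 to 1089 for the same sum. Of 24 globin symbols listed, 9 matched a symbol of the data, members included. The symbols without a match, Hba-a1 among them, were not measured here. The 6 matched globin genes other than the members were nearly absent. Hbb-bs had at most 2 counts in a library, the embryonic Hbe1 and Hbz at most 1, and Hbe2, Hbg1, and Hbq1b had 0 in every library, where 0 counts allow up to 3.

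Hba-a2 (ENSRNOG00000029886), an alpha globin gene, was the most abundant member. Its most counted transcript row had 535 and 567 CPM in 1w0Gy, 552 and 457 CPM in 1w4Gy, 291 and 354 CPM in 4m0Gy, and 370 and 387 CPM in 4m4Gy. The ages did not overlap, and the dose groups overlapped only at 1 week of age. Per length, its mean over the 8 libraries was 586 TPM, against 225 TPM for Hbb-b1 and 24.1 TPM for Hba-a3.

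Hbb-b1 (ENSRNOG00000047098), a beta globin gene, had 250 and 215 CPM in 1w0Gy, 238 and 110 CPM in 1w4Gy, 86.6 and 119 CPM in 4m0Gy, and 116 and 149 CPM in 4m4Gy. These values are of its most counted transcript row. In that row the second 1w4Gy library lay among those of the older rats, although its partner was close to the sham-irradiated libraries. The ratio of the most counted rows of Hba-a2 and Hbb-b1 in TPM was 3.94 in this library and between 2.04 and 3.20 in the other 7. Not all rows of Hbb-b1 were low there. ENSRNOT00000089102 had 53.6 CPM in this library and 33.8 to 38.9 CPM in the older rats, so the low value and the ratio depend on the row used.

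Hba-a3 (ENSRNOG00000047321), a further alpha globin gene with a single transcript row of 548 bases, followed another order. It had 6.90 and 15.0 CPM in 1w0Gy, 12.1 and 21.8 CPM in 1w4Gy, 23.95 and 20.6 CPM in 4m0Gy, and 5.50 and 7.31 CPM in 4m4Gy. Both 4m4Gy libraries were below both 4m0Gy libraries, as the choice of the gene fixed, and the 4 libraries exposed at 1 week spread from 6.90 to 21.8 CPM and overlapped between dose groups.

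Slc4a1 (ENSRNOG00000020951) had 2.97 and 3.99 CPM in 1w0Gy, 5.53 and 4.14 CPM in 1w4Gy, 6.59 and 8.79 CPM in 4m0Gy, and 9.09 and 8.28 CPM in 4m4Gy. Every library of the older rats was above every library of the younger ones, the opposite order to Hba-a2. The share of all genes that separate the ages in this way is not given here. Nothing is therefore read from the order alone for either gene. Both transcript rows of Slc4a1 carried the same counts. Ahsp (ENSRNOG00000020165) stayed between 1.54 and 2.42 CPM, from 25 to 39 counts a library. The member with fewest counts thus varied 1.57-fold over the libraries, against 1.95-fold for Hba-a2, 2.89-fold for Hbb-b1, 3.06-fold for Slc4a1, and 4.35-fold for Hba-a3.

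**Figure D1:**
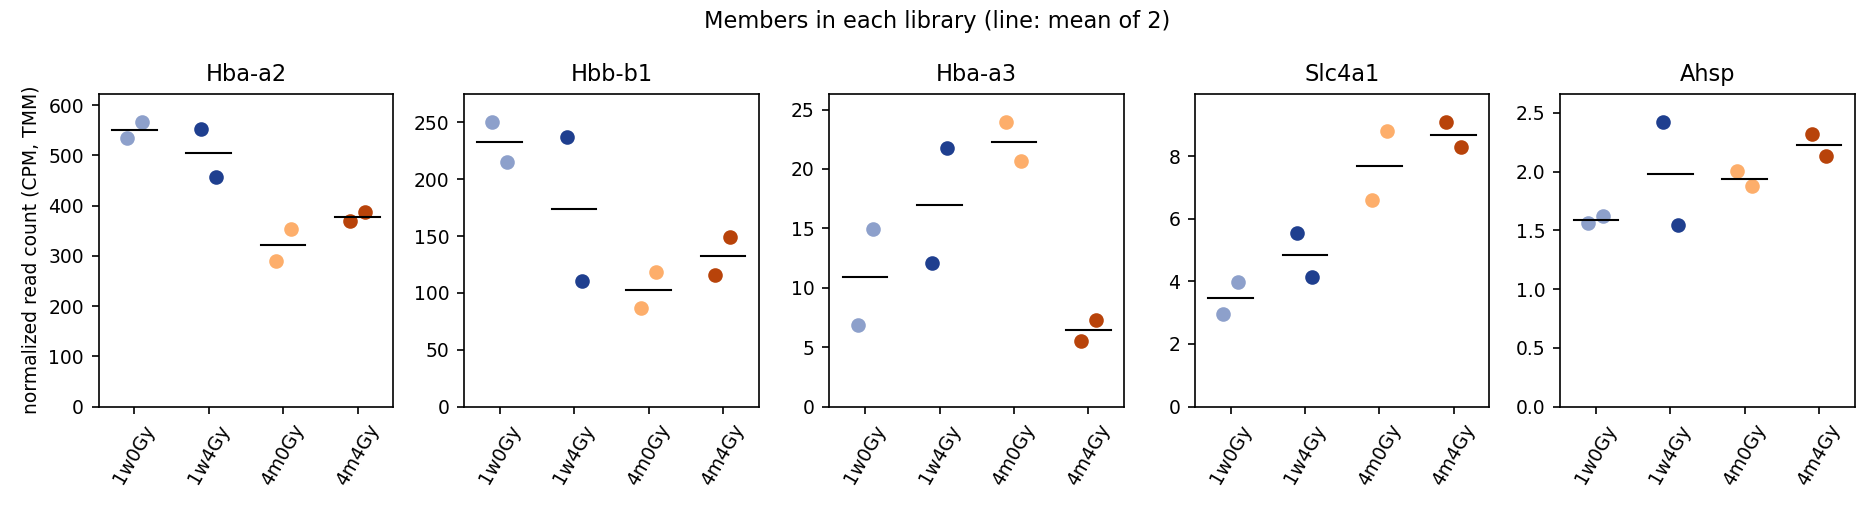
Normalized read count (CPM, TMM) of the 5 members in each of the 8 libraries, by group, with each point 1 rat and the line the mean of 2. Hba-a2 lies between 457 and 567 CPM in the rats exposed at 1 week and between 291 and 387 CPM in those exposed at 4 months, whereas Slc4a1 is higher in the latter.

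The age comparison asked which members differed between the sham-irradiated groups, 4m0Gy against 1w0Gy. By the study's methods the 1-week rats were pups of purchased pregnant rats, with older male rats as counterparts. Age and the origin of the rats therefore cannot be told apart. Hba-a2 fell from 551 ± 22.1 to 322 ± 44.8 CPM (SD, n = 2), or by -0.77 ± 0.10 on the log2 scale (standard error), and passed edgeR's quasi-likelihood test (adjusted p = 0.0304). It was the 1 member called of 4 tested, where 1.06% of all 15364 genes tested were called at an adjusted p under 0.05. Hbb-b1 was 233 ± 25.1 CPM in 1w0Gy and 103 ± 22.7 CPM in 4m0Gy, or -1.18 ± 0.17 on the log2 scale, and its edgeR adjusted p of 0.0639 missed the threshold. Slc4a1 was 3.48 ± 0.726 CPM in 1w0Gy and 7.69 ± 1.56 CPM in 4m0Gy, or 1.15 ± 0.24 on the log2 scale, with an edgeR adjusted p of 0.0801. Ahsp differed by 0.28 ± 0.29 on this scale (edgeR adjusted p = 0.67). The group means of Hba-a3 were 10.9 ± 5.72 CPM in 1w0Gy and 22.3 ± 2.35 CPM in 4m0Gy, and they carry no test because the 4m0Gy libraries chose this gene.

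These calls depended on how the spread was estimated. The robust option of edgeR used here was set after results with and without it had been seen, because it came closest to the processing by which the members were selected. Without it, edgeR gave adjusted p = 0.0415 for Hba-a2, 0.038 for Hbb-b1, and 0.0961 for Slc4a1, so that 2 members were called against a background of 0.722%. DESeq2 called these 3 genes, with 2.55% of all genes. The call of Hba-a2 was lost without either 1w0Gy library, with an edgeR adjusted p of 0.103 without the first and 0.133 without the second, where the lone library is assumed to vary like the 4m0Gy pair. In the irradiated rats, 4m4Gy against 1w4Gy, the log2 fold change was -0.41 for Hba-a2 (edgeR adjusted p = 0.151), -0.39 for Hbb-b1 (0.787), and 0.85 for Slc4a1 (0.132).

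Neonatal irradiation, 1w4Gy against 1w0Gy, called none of the 5 members, where 0.00651% of 15359 genes tested passed an adjusted p under 0.05 with a fold above 1.5 or under 0.5. By edgeR, by edgeR without the robust option, and by DESeq2, 0 of the 4 members other than Hba-a3 had an unadjusted p under 0.05. The log2 fold changes were -0.13 for Hba-a2 (standard error 0.12), -0.42 for Hbb-b1 (0.42), 0.63 for Hba-a3 (0.49), 0.48 for Slc4a1 (0.26), and 0.32 for Ahsp (0.34), all with an edgeR adjusted p of 0.889 or more. The value of Hbb-b1 differed with the 1w4Gy library used. Its log2 fold change was 0.03 without the second and -1.07 without the first (edgeR adjusted p = 0.0053), in fits where the lone 1w4Gy library is assumed to vary like the pair of 1w0Gy libraries.

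At 4 months of age, 4m4Gy against 4m0Gy, Hba-a3 went from 22.3 ± 2.35 to 6.41 ± 1.28 CPM (SD, n = 2), the difference on which it was selected. By this choice it was the 1 member past the limits. Of all 15253 genes tested 0.0197% were past them, and nothing is read from this count. The members that the choice did not rest on had log2 fold changes of 0.23 for Hba-a2 (standard error 0.10), 0.36 for Hbb-b1 (0.22), 0.17 for Slc4a1 (0.20), and 0.20 for Ahsp (0.31).

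**Figure D2:**
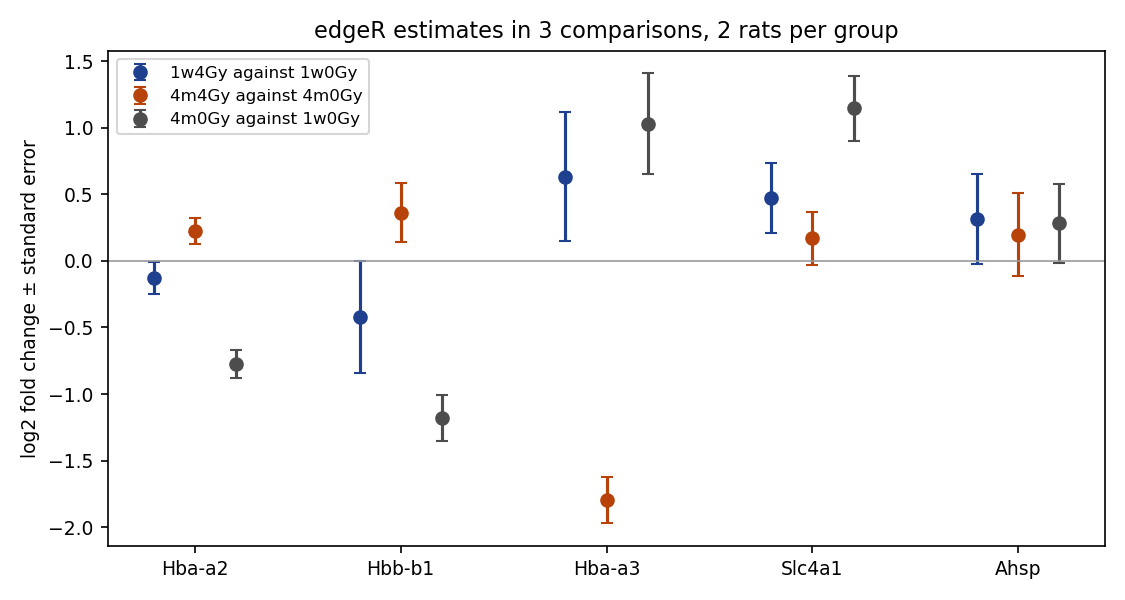
Log2 fold change (y axis) of each member with its standard error from edgeR in 3 comparisons of 2 rats against 2. Hba-a2 and Hbb-b1 lie at -0.77 and -1.18 with age and Slc4a1 at 1.15, whereas Hba-a3 lies at -1.80 in the comparison at 4 months that selected it.

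The share of Hba-a3 in the counts on Hba-a2 and Hba-a3 together is given as a description, since the gene was chosen on its level. It was 1.27% (95% Clopper-Pearson interval 1.06 to 1.51) and 2.58% (2.28 to 2.91) in 1w0Gy. It was 2.14% (1.85 to 2.46) and 4.56% (4.10 to 5.04) in 1w4Gy. The libraries of 4m0Gy had 7.61% (6.89 to 8.40) and 5.51% (4.96 to 6.10), and those of 4m4Gy 1.47% (1.17 to 1.82) and 1.86% (1.53 to 2.23). These intervals cover counting error only, and in every group each library's share was outside the interval of its partner. The highest share was 5.98 times the lowest.

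The differences in mean level of both alpha globin genes stand side by side. From 4m0Gy to 4m4Gy the mean of Hba-a3 fell by 15.9 CPM while that of Hba-a2 was 55.9 CPM higher. From 1w0Gy to 4m0Gy Hba-a3 was 11.3 CPM higher, and Hba-a2 fell by 229 CPM. From 1w0Gy to 1w4Gy the differences were 5.98 CPM for Hba-a3 and -46.5 CPM for Hba-a2. These comparisons share libraries, and the first chose Hba-a3, so nothing is read from their signs or sizes. Whether the counting allowed reads that fit several globin copies is not given in the sources used here, so the division of reads between near-identical copies is uncertain.

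Over the 8 libraries Hba-a3 had a Pearson r of log2(CPM + 1) of -0.24 with Hba-a2, -0.43 with Hbb-b1, -0.08 with Slc4a1, and -0.34 with Ahsp, given as a description. The genes most like it among 14394 with a mean of at least 1 CPM were Elovl7, a fatty acid elongase (r = 0.98), Pomt2, a protein O-mannosyltransferase (0.98), Kmt2c, a histone methyltransferase (0.98), Alg10, a glucosyltransferase of N-glycan assembly (0.97), and Prkaa2, a catalytic subunit of AMP kinase (0.97). Hba-a2 came at place 9565 in that order. Hba-a3 also moved with a property of the libraries. The percentage of counts on transcripts longer than 5000 bases, with Tg left out, was lowest in 4m4Gy with 15.3% and 15.7%. It was 16.03% and 16.1% in 1w0Gy, and 16.6% and 16.9% in 4m0Gy. The 1w4Gy libraries had 16.2% and 17.4%. The 3 libraries with the most such counts were the 3 with the most Hba-a3, and the 3 with the fewest were the 3 with the least. This measure was chosen after the values of Hba-a3 were seen, and its part in the result was not tested.

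**Figure D3:**
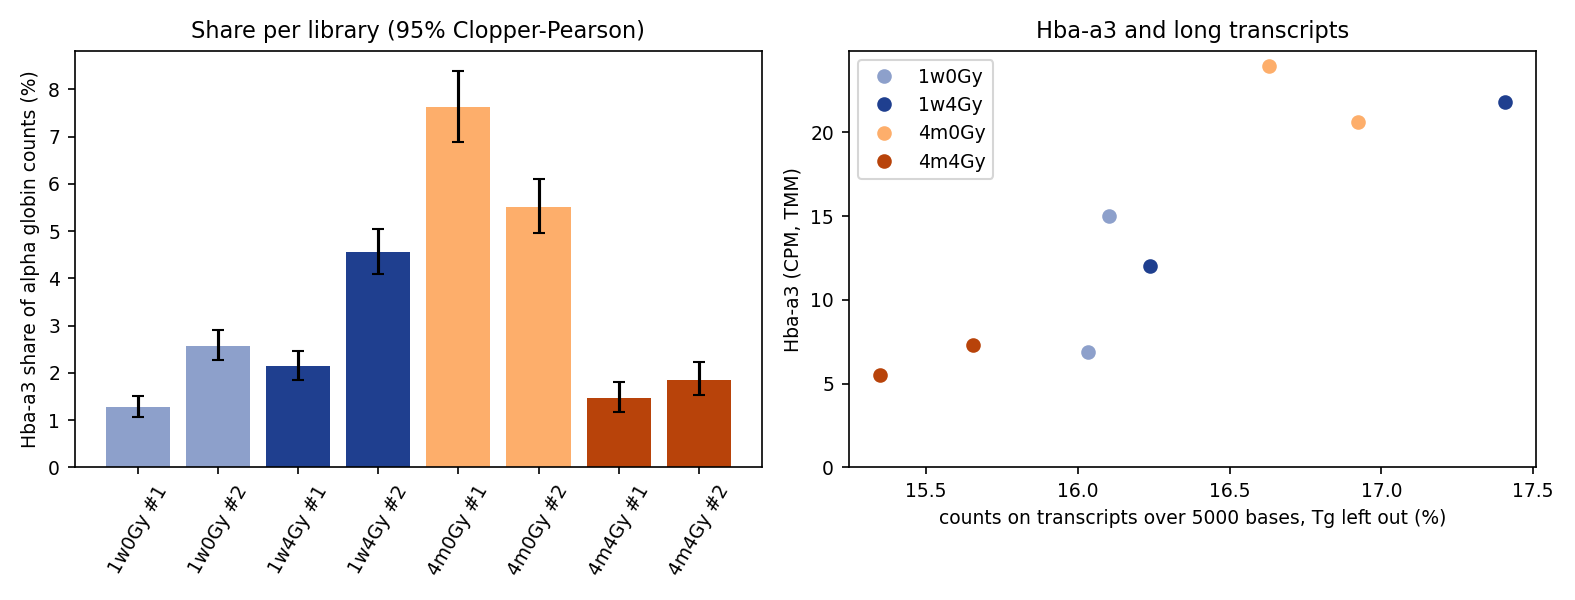
Left, share of alpha globin counts on Hba-a3 (%) in each library, with 95% Clopper-Pearson intervals as bars. Right, Hba-a3 (CPM, TMM) against the percentage of counts on transcripts over 5000 bases, 1 point a library, where the first 4m4Gy library holds the lowest value of both.

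The transcript rows of the globin genes did not all follow the same pattern. For Hba-a2, 5 of 6 rows had counts in number, and the sixth, ENSRNOT00000118799, had 23 in all libraries together. The 5 rows had log2 fold changes with age between -0.80 and -0.76, and 4 of them passed the edgeR test when put in place of the most counted row. The exception, ENSRNOT00000119140, had -0.80 with an edgeR adjusted p of 0.222.

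The 10 rows of Hbb-b1 fell into 2 kinds. The most counted row, ENSRNOT00000089125, and 3 others with r between 0.8635 and 0.998 to it over the 8 libraries had log2 fold changes with age between -1.18 and -0.80, and 2 of these 4 passed the edgeR test. The 6 remaining rows had r between 0.09 and 0.29 to the most counted row. Their log2 fold changes with age lay between -0.38 and -0.24, and 0 of 6 passed, with the lowest edgeR adjusted p at 0.144. The kinds were told apart after their values were seen.

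The largest of the 6, ENSRNOT00000089102, had 40.4 and 47.4 CPM in 1w0Gy, 38.7 and 53.6 CPM in 1w4Gy, 38.9 and 35.3 CPM in 4m0Gy, and 35.0 and 33.8 CPM in 4m4Gy. Its highest value was in the second 1w4Gy library, where the most counted row was at its lowest among the younger rats. As a percentage of the most counted row it was 48.6% in that library, 45.0% in the first 4m0Gy library, and from 16.2% to 30.3% in the other 6. Rows of one gene hold overlapping reads and are not independent.

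**Figure D4:**
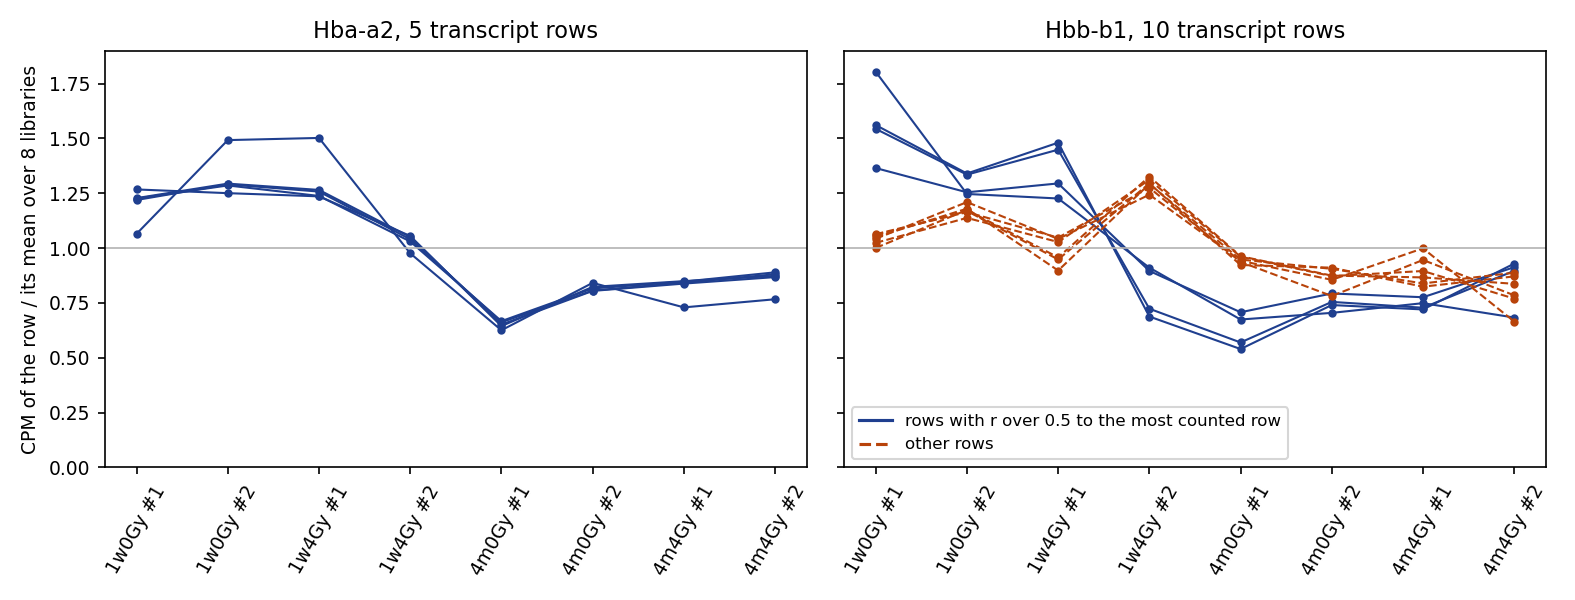
CPM of each transcript row of Hba-a2 and Hbb-b1 divided by its own mean over the 8 libraries, with lines joining the values of a row. The Hba-a2 rows keep near-constant proportions except ENSRNOT00000119140, at 27.2% to 37.5% of the most counted row, and 6 Hbb-b1 rows (dashed) peak in the second 1w4Gy library, in which the other 4 (solid) are below their own means.

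The members other than Hba-a3 were correlated over the 8 libraries to ask whether they rise and fall together, in 6 pairs of log2(CPM + 1). Hba-a2 and Hbb-b1 had a Pearson r of 0.89 (exact permutation test, two-sided, p = 0.00541, adjusted p = 0.0324) and a Spearman rho of 0.74 (exact p = 0.0458, adjusted p = 0.173). Without the 2 libraries farthest from the median of Hba-a2, r was 0.82. Hba-a2 and Slc4a1 had an r of -0.73 (exact permutation p = 0.0478, adjusted p = 0.114) and a rho of -0.71 (exact p = 0.0576, adjusted p = 0.173), and r was -0.84 without the 2 farthest libraries. Slc4a1 and Ahsp had an r of 0.72 (exact permutation p = 0.0568, adjusted p = 0.114) and a rho of 0.62 (exact p = 0.115, adjusted p = 0.23), with r at 0.53 without the 2 farthest. The other 3 pairs had r between -0.58 and -0.11.

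These pooled values contain the difference between ages, which separates the libraries in Hba-a2. After each group's mean was taken off, Hba-a2 and Hbb-b1 kept an r of 0.84, whereas Hba-a2 and Slc4a1 turned to 0.87. With 2 libraries a group, an exact permutation within groups cannot go below p = 0.125, and the adjusted p was 0.75 for both. The genes most like Hbb-b1 were P2ry13, a nucleotide receptor (r = 0.995), Cd72, a B cell surface protein (0.99), AABR07021573.2 (0.98), Ilk, integrin-linked kinase (0.98), and Basp1 (0.97). The first 3 had low levels, P2ry13 from 1.03 to 3.78 CPM, Cd72 from 0.775 to 2.27 CPM, and AABR07021573.2 from 0.969 to 1.55 CPM. These genes were picked by rank among 14394 over 8 libraries, so their r values carry no test. Hba-a2 stood at place 124 in that order.

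Genes that define erythroid precursors were near 0. The erythroid transcription factors Gata1 and Klf1 had at most 7 and 12 counts in a library, the membrane proteins Epb42 and Rhag at most 7 and 1, and Hemgn and Car1 at most 9 and 8. Of 15 late erythroid genes, 9 were tested with age and 1 was called, Tent5c, a poly(A) polymerase, which fell from 133 ± 6.70 to 95.2 ± 0.00907 CPM (log2 fold change -0.48, edgeR adjusted p = 0.0332), where 1.06% of all genes tested were called. The list's median log2 fold change with age was -0.01, beside 0.00015 over all genes tested. Bnip3l, which clears mitochondria, led this list in level, with a lowest value of 142 CPM. Among the red cell membrane genes, Dmtn, which bundles actin at the membrane, had a lowest value of 74.7 CPM.

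Heme synthesis, iron supply, and clearance genes held none that was called with age or after neonatal irradiation, where 1.06% and 0.00651% of all genes tested were called. At these shares lists of this length would hold few calls or none, and the count is no result about them. Of 9 heme synthesis genes 8 were tested, with a median log2 fold change with age of -0.03, led in level by Alas1, the housekeeping form of the first enzyme, and Alad. All 10 genes of iron supply and erythropoietin response were tested, with a median of 0.01, led by Slc25a39 and the transferrin receptor Tfrc. Of 10 genes of hemoglobin and heme clearance 8 were tested, with a median of -0.08, led by the ferritin heavy chain Fth1 and the heme transporter Slc48a1. The erythroid transcription factors had 2 of 6 tested, Zfpm1 and Tal1, with a median of 0.12.

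Marker lists of other blood and vessel cells were set beside the globins. The 9 platelet markers found, led by Itga2b and Pf4, summed to 13.5 to 13.7 CPM in 1w0Gy and 13.1 to 13.4 CPM in 4m0Gy. This sum joins markers whose means differed in opposite directions. Itga2b had a mean of 6.37 CPM in 1w0Gy and 8.32 CPM in 4m0Gy. Pf4 had 4.51 and 3.03 CPM, and Gp1bb 1.54 and 0.889 CPM. The other 6 had a mean under 1 CPM over the libraries. The 11 neutrophil markers, led by Mpo and Cxcr2, summed to 7.64 to 9.38 CPM in 1w0Gy and 4.91 to 7.39 CPM in 4m0Gy. Mpo had a mean of 3.78 CPM in 1w0Gy and 2.50 CPM in 4m0Gy, and Cxcr2 had 1.85 and 1.03 CPM. The other 9 neutrophil markers had a mean under 1 CPM over the libraries, and their group means differed in both directions. The 11 endothelial markers found, led by Plvap and Pecam1, summed to 1429 to 1467 CPM in 1w0Gy and 1253 to 1512 CPM in 4m0Gy. Of these lists 3 platelet, 5 neutrophil, and 11 endothelial markers were tested with age and after neonatal irradiation. None of them was called, where 1.06% and 0.00651% of all genes tested were called. At these shares lists of this length would hold few calls or none, and the count is no result about these cells. The 8 skeletal muscle markers found, led by Acta1 and Myh4, ranged from 8.46 CPM in the second 1w4Gy library to 94.6 CPM in the second 1w0Gy library. Of the globins of other tissues, cytoglobin (Cygb) was between 40.03 and 50.9 CPM and myoglobin (Mb) between 0.293 and 9.37 CPM. The part of these cells in the globin values was not tested.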

How the data were processed

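RNA-Seq was analysed in thyroids of 8 rats, 2 in each of 4 groups. The authors mapped the reads with HISAT2 (version 2.2.1 in the submitters' processing notes) and counted them with featureCounts (2.0.0), and deposited raw counts and TPM per transcript. The genome build and the settings for strand and shared reads are not given in the sources used here. The transcript with the highest total gave 1 value per gene. Counts were tested with edgeR 4.0.16 in R 4.3.3 (quasi-likelihood, TMM, filterByExpr, Benjamini-Hochberg). The robust option was not in the plan. It was turned on after results without it were seen (0 genes called at 4 months) and 8 combinations of options had been tried on that comparison, because its values came closest to the earlier processing. It removed the age call of Hbb-b1. DESeq2 1.42.0, other scalings, filters, transcript choices, a replicate block, and single libraries left out were alternatives. Row-by-row fits, age in irradiated rats, and fits without the robust option were added after seeing the data. CPM used pseudocount 1 on the log scale. Depth was 14.8 M to 18.1 M counts, so the spread between 2 rats limits precision. Correlations covered 6 pairs in place of the 10 planned, since Alas2 was not matched. Scripts were tested on simulated data. The members and lists were chosen with earlier results of these data known. Named genes were all members, the other globins, list genes called with age or neonatal irradiation, the 2 highest of each list, and the 5 genes most like Hbb-b1 and Hba-a3. Some results that this rule selects are not reported here. Deposited RPKM were not used.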

Additional observations from a re-analysis of the deposited data

How the results depend on the processing

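The robust option of edgeR was chosen after results were seen. Without it, 2 members in place of 1 passed with age. Of the members, the count called with age was also 3 with DESeq2, 2 without the filter on low counts, 0 in the irradiated rats, and from 0 to 3 with single libraries left out. The sum over transcripts called 1 member with age, Hbb-b1 (edgeR adjusted p = 0.0474) in place of Hba-a2 (0.0682), and the longest transcript of Hba-a2 was not tested. At 4 months the 1 member past the limits is Hba-a3, chosen on that comparison, so its count is a description. It was 0 without the robust option, 0 with all 8 samples in one fit, 0 with the sum over transcripts, and from 0 to 1 with single libraries left out. After neonatal irradiation the count was 0, and from 0 to 1 with single libraries left out. A group left with 1 library is assumed to vary like the other group.

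The replicate numbers were shared by label only, and same-numbered samples had deviations with r of 0.151 at 1 week, 0.123 at 4 months, and -0.235 with age. With the replicate block, 0 members were called with age (Hba-a2 edgeR adjusted p = 0.0604), and the genes called in the whole table were 10 at 1 week, 12 at 4 months, and 14 with age.

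Over the whole table, the neonatal comparison called 1 gene, and 12 with DESeq2, 2 without the filter, 0 with the sum over transcripts, 0 without the robust option, and 2 to 45 with single libraries left out. The comparison at 4 months called 3 genes, and 5 with DESeq2, 1 with all 8 samples, 15 without the filter, 0 with the sum, 0 without the robust option, and 3 to 52 with single libraries left out. Age called 163 genes, and 346 with DESeq2, 513 without the filter, 27 with the sum, 111 without the robust option, and 12 to 743 with single libraries left out.

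After neonatal irradiation, the log2 fold change with single libraries left out ran from -0.27 to 0.0025 for Hba-a2 and from -1.07 to 0.0289 for Hbb-b1, the highest of both without the second 1w4Gy library, and from -0.0412 to 0.60 for Ahsp, the lowest without the first. In 5 other transcript rows that of Hbb-b1 turned to 0.0712, 0.0606, 0.114, 0.0105, and 0.0217. Among correlations, 1 pair passed, and from 0 to 1 with single libraries left out and 0 as deviations from group means. There r was 0.87 for Hba-a2 and Slc4a1, 0.54 for Hba-a2 and Ahsp, 0.55 for Hbb-b1 and Slc4a1, and 0.73 for Hbb-b1 and Ahsp, and the last pair ran from -0.50 to 0.161 with single libraries left out. The highest share of Hba-a3 over the lowest was 1.02 with the longest transcript, since that row of Hba-a2 held almost no counts. For the changes without such a reason, the cause was not tested. Ahsp, at 25 to 39 counts a library, was limited by depth.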
